A study of Mus musculus with 24 samples.

Results

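The G1E line, which lacks the transcription factor GATA1, was compared with primary megakaryocyte erythroid progenitors (MEP) by their accessible chromatin. The 2 peak lists titled G1E and the 2 titled MEP were taken, 4 of the 24 libraries of a survey of 12 mouse hematopoietic populations. The assay was ATAC-seq, which maps accessible DNA by where a transposase inserts sequencing adapters. G1E is a cultured erythroid progenitor line derived from embryonic stem cells in which the Gata1 gene was disrupted, and both of its libraries come from this 1 line, for which the labels give no strain, age or sex. MEP were sorted from bone marrow of adult C57BL6 mice, male per the methods of the study, as lineage negative, Kit positive and Sca1 negative cells low in CD34 and in Fc gamma receptors, and they carry no engineered allele. Where another population helps, G1E-ER4+E2 was used, a G1E clone in which estradiol (E2) activates a fusion of GATA1 and the estrogen receptor, together with the sorted colony forming erythroid (CFUE) and megakaryocyte (CFUMK) cells, 2 libraries each. No untreated G1E-ER4 library was analysed here, so estradiol, clone and GATA1 activity cannot be told apart in that line.

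GATA1 binds GATA sites in DNA and is required for red cell and megakaryocyte maturation. In early progenitors many of the same sites are held by the related factor GATA2, and their exchange for GATA1, often beside the E-box factor TAL1, silences progenitor genes such as Gata2 and Kit and activates globin and heme genes. Cells without GATA1 stop at a proerythroblast-like stage and keep dividing in culture. G1E cells have been used to study this exchange, and MEP are the primary cells from which the erythroid and megakaryocyte lineages part.

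The 2 G1E lists held 52720 and 58011 peaks and the 2 MEP lists 165774 and 160409, with peaks of at most 150 bp. Relative depth, read from the step between the lowest scores, was 22.3% and 23.3% of the deepest library of the survey in G1E and 86.4% and 62.9% in MEP. The line thus had fewer peaks, and a lower depth by this estimate, which rests on scores of no stated unit, of which 91.1% and 91.9% of the low ones lay on the step in G1E. The main counts are therefore given also at equal peak number, for which the 52720 highest scoring peaks of every library were kept. The libraries also carry numbers that lie apart in the labels (844 and 852 for MEP, 870 and 871 for G1E), and the labels do not say what these stand for. Any difference in preparation or sequencing, depth, culture, strain and genotype cannot be told apart between the groups. Per the study the replicates were biological, but the labels do not say which mice or cultures they came from. The p-values measure the spread between libraries only. For the gene tests (limma) this spread was estimated within all populations of the survey, not within G1E and MEP alone. Fits of the G1E and MEP libraries alone are named where given. No peak lay on chromosome Y in either G1E list, against 32 and 48 in MEP.

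Elements are merged peaks. An element was called in a population where both of its libraries had a peak there, and it was shared when all 4 libraries had one, G1E only when both G1E and neither MEP library had one, and MEP only in the reverse case. The following 6 elements, taken from GRCm38.p6 (mm10) on the plus strand, 5′ to 3′, are examples that the text returns to. They were picked by hand among elements with a GATA motif, so they do not show how frequent such letters are. All motifs were searched on both strands. Capitals mark AGATAA preceded by CTG, the letters of an E-box, with 7 to 9 bases between them, which is the composite site of GATA factors and TAL1. In Il5ra and Gfi1b they mark a GATA motif, which is AGATAA or TGATAA, and an AP-1 motif. The AP-1 motif is TGAGTCA or TGACTCA. Other GATA motifs are left in lower case. The first 2 were open in G1E only, the next 2 in MEP only, and the last 2 in both.
Cpa3, G1E only, intron, chr3:20229023-20229322: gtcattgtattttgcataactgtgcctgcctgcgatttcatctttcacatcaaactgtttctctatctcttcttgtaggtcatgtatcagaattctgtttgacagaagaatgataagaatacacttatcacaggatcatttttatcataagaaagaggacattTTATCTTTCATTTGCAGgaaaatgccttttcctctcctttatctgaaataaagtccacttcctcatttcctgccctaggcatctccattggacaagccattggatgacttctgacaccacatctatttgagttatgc
Il5ra, G1E only, promoter, chr6:106749036-106749189: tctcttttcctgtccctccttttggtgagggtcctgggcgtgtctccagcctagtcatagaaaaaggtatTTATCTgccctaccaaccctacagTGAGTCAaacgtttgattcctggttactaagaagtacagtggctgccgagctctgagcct
Kit, MEP only, intron, chr5:75607994-75608293: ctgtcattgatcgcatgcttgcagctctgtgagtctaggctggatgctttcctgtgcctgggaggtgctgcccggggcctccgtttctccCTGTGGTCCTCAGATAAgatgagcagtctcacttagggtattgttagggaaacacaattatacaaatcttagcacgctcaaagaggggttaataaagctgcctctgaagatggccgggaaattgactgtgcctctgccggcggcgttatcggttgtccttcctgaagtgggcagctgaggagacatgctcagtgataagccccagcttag
Gfi1b, MEP only, intron, chr2:28616948-28617247: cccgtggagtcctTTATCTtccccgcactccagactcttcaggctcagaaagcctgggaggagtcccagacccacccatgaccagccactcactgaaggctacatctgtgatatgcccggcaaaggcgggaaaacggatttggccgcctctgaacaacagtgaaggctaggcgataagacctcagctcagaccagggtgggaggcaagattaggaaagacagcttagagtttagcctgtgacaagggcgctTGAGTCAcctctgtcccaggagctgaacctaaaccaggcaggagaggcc
Alas2, shared, intron, chrX:150549645-150549944: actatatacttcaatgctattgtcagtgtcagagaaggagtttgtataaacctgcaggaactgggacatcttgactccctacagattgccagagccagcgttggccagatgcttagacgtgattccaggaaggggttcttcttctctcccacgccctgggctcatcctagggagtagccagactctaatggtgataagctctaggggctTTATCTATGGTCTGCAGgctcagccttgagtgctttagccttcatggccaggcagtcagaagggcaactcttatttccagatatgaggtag
Gata1, shared, 15.45 kb before the gene start, intergenic, chrX:7993367-7993666: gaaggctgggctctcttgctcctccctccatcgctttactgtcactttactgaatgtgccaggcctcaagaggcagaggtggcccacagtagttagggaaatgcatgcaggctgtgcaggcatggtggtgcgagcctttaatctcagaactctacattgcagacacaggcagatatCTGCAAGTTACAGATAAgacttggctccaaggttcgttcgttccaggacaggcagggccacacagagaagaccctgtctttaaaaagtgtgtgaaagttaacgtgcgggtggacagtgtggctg

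At the Gata1 gene itself, 14 and 9 of the top peaks of G1E and 4 and 4 of those of MEP lay in a window of the gene and 20 kb of flank, and in the full lists 14 and 9 against 10 and 12. Peaks were present within the gene body in G1E, so the peak lists do not check the disruption of the gene. Of 9 elements in this window 4 were shared, among them the upstream element printed above, which stood at percentiles 54.2 and 70.2 of all G1E scores and at 88.6 and 89.2 of the MEP scores. This element was called in neither G1E-ER4+E2 library. An intronic element 11.75 kb into the gene with 4 GATA motifs was G1E only, at percentiles 48.1 and 54.5, and was called in both libraries of no other primary population.

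Gata2, the progenitor GATA factor that GATA1 represses, had 11 and 16 peaks in its window in G1E and 3 and 1 in MEP at equal peak number. The difference of 2.34 ± 0.41 (SE) on the log2(peaks + 1) scale passed the threshold (adjusted p = 5.43e-05, limma, Benjamini-Hochberg), and missed it with the 4 libraries fitted alone (limma adjusted p = 0.12). The full MEP lists held 7 and 8 peaks there. An intronic Gata2 element 9.47 kb past the start, with 1 match of GATA joined to CTG, was shared, at percentiles 53.5 and 36.1 in G1E and 87.2 and 65.8 in MEP. The Gata2 promoter was called in all 4 full lists, but at equal peak number only in the 2 G1E lists, a pattern of 1.2% of gene promoters then, where the reverse pattern took 6.66%.

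Kit, the receptor for stem cell factor, ran the other way although it too is repressed by GATA1. Its window held 6 and 5 peaks in G1E and 12 and 9 in MEP (log2 difference −0.82 ± 0.27, limma adjusted p = 0.0211). The call was lost with the 4 libraries fitted alone (limma adjusted p = 0.135), without G1E replicate 2 (0.125) and without MEP replicate 1 (0.188). The Kit promoter and an intronic element 4.99 kb past the start were shared. By contrast, 5 elements of the Kit window were MEP only and 0 were G1E only. Those 33.23, 49.39 and 58.59 kb into the gene stood at percentiles 80.3 and 85.9, 90.6 and 92.4, and 71.5 and 75.6 in MEP. All 3 were called in both G1E-ER4+E2 libraries. In the plot of called elements about 4 genes, the middle of the Kit gene is empty in both G1E rows.

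**Figure D1:**
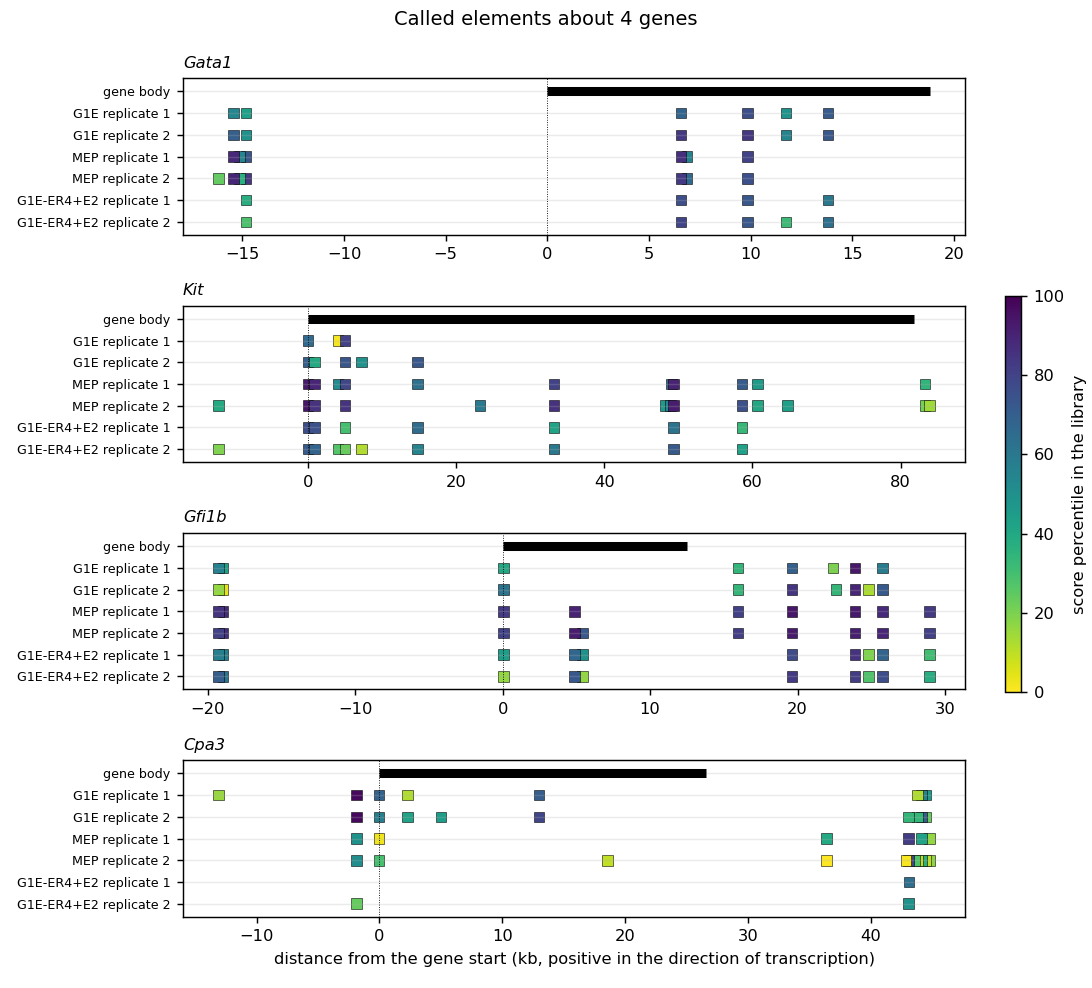
Called elements about Gata1, Kit, Gfi1b and Cpa3 by distance from the gene start in kb (x axis), with a row for each library of G1E, MEP and G1E-ER4+E2 and a black bar for the gene body; the colour of each square is the percentile of its score within that library. The elements 33.23 to 58.59 kb into Kit and the element 4.88 kb into Gfi1b are empty in both G1E rows and filled in the MEP and G1E-ER4+E2 rows.

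The share of elements in common varied between the erythroid loci. At Alas2, which encodes the first enzyme of erythroid heme synthesis, the intronic element printed above stood at percentiles 95.4 and 97.0 in G1E and 97.1 and 96.9 in MEP, among the highest scores of both populations. Of 8 elements at Alas2 4 were shared and 2 were MEP only. Of 13 elements at Klf1, an erythroid activator, 7 were shared and 1 was MEP only, and of 6 at Epor, the erythropoietin receptor, 5 were shared and 1 was G1E only. At Slc4a1, which encodes the band 3 anion exchanger, 2 of 4 were shared and none was exclusive. The upstream alpha globin element 14.38 kb before Hba-a1 was shared at percentiles 67.7 and 82.9 in G1E and 94.7 and 95.3 in MEP, as were 5 of 9 elements in that window, with 1 MEP only.

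Differences at these loci lay in single elements and in rank. The promoter of Hbb-bs, an adult beta globin gene, was called in all 4 libraries but stood at percentiles 1.3 and 29.5 in G1E, against 96.2 and 95.7 in MEP and 98.8 and 98.5 in G1E-ER4+E2. Both G1E libraries thus ranked it lower than the MEP and G1E-ER4+E2 libraries did, 1 of them near the bottom of its list. Of 14 elements in the window of Hbb-bt 5 were shared and 3 were MEP only. Both elements at the start of Hbb-bt, the neighbouring adult beta globin gene, were MEP only and were called in both G1E-ER4+E2 libraries. The adult beta globin genes are near-identical copies, so reads there may be split between them. At Gfi1b, a repressor that acts with GATA1, the intronic element 4.88 kb past the start was MEP only, at percentiles 90.5 and 92.2, and was called in both G1E-ER4+E2 libraries at 67.1 and 72.9. At Zfpm1, which encodes the GATA1 partner FOG1, 8 of 26 elements were shared, 5 were G1E only and 2 MEP only. Its G1E-only element 31.37 kb past the start, with 2 GATA motifs, stood at percentiles 79.4 and 82.0 in G1E and 74.3 and 71.5 in G1E-ER4+E2, and no other primary population had it in both libraries.

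Over the genome, 23357 elements were shared, 5368 were G1E only and 55295 were MEP only. At equal peak number the counts were 18768, 9373 and 14597, so MEP-only elements were the largest class with all peaks and shared elements at equal number. Of the 30663 elements called in G1E, 76.2% were called in both MEP libraries and 17.5% in neither. Of the 86005 elements called in MEP, 27.2% were called in both G1E libraries and 64.3% in neither, and at equal peak number these shares were 50.4% and 39.2% of 37229. What share of the MEP-only elements would be called in G1E at the depth of the MEP libraries was not tested.

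Promoter elements, whose centre lay within 1 kb of a transcript start, were shared more than distal ones. Of promoter elements called in G1E 89.2% were called in both MEP libraries, and of distal ones 63.1% (at equal peak number 80.7% and 44.6%). In the direction from MEP to G1E the shares were 43.6% of promoter and 17.7% of distal elements (66.3% and 35.0%). Shared elements were 58.7% promoter, G1E-only elements 19.6% and MEP-only elements 26.4%. Their median distances to a start were 437, 5914.5 and 5650 bp. The plot of elements by class gives both sets of counts.

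**Figure D2:**
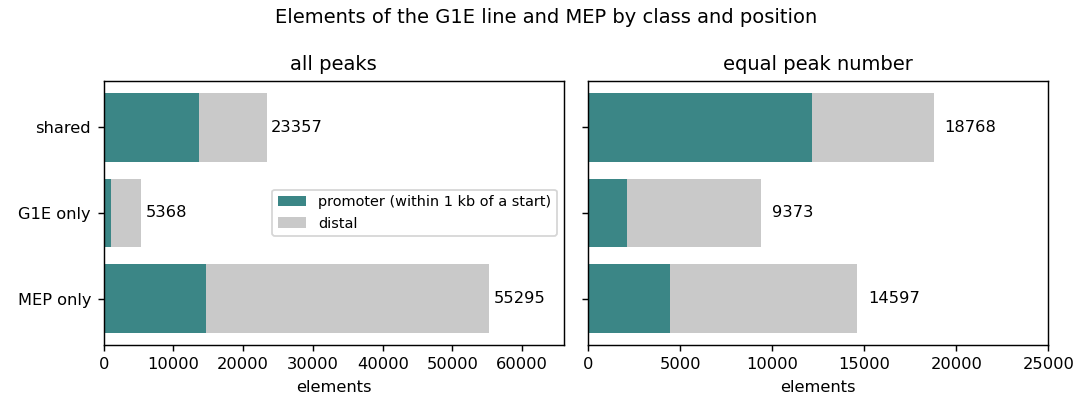
Number of elements (x axis) that were shared, G1E only or MEP only, from all peaks (left) and from the 52720 highest scoring peaks of each library (right), split into promoter (within 1 kb of a transcript start) and distal. MEP-only elements exceed shared ones with all peaks, 55295 against 23357, and fall below them at equal peak number, 14597 against 18768.

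By single peaks, the share in promoters was 49.2% and 48.7% in G1E and 33.1% and 35.4% in MEP. The groups do not overlap, with means of 49.0% ± 0.419 and 34.2% ± 1.67 (SD, n = 2), but an exact two-sided permutation test of 2 against 2 libraries cannot give less than the p = 0.333 found. At equal peak number the order turned, with 49.2% and 48.8% in G1E and 50.2% and 49.7% in MEP (exact permutation p = 0.333).

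Sharing depended on the score. Of the distal peaks among the 10000 highest of each MEP library, 63.9% and 64.2% were called in both G1E libraries, and of those at ranks 40001 to 50000, 19.4% and 18.9%. The same MEP peaks were found in G1E-ER4+E2 in 75.8% and 75.5% at the highest ranks and 29.8% and 29.7% at the lowest, and in CFUMK in more of them, at the lowest ranks 85.5% and 83.8%. MEP peaks were thus found less often in G1E than in these 2 populations, at the top of the lists as at the bottom. In LSK, the stem and multipotent progenitor gate, 48.4% and 49.4% of the highest distal MEP peaks were found, fewer than in G1E, and 45.2% and 43.8% of the lowest, which is more. All these searches used the full lists of the other population, which differ in length. They held 52720 and 58011 peaks in G1E, 202625 and 197175 in CFUMK and 200857 and 135309 in LSK. The part of list length in these shares was not tested. From G1E to MEP the shares were 79.1% and 80.2% at the highest ranks and 43.8% and 45.9% at the lowest. The CFUE population held 46.3% and 47.7% of the highest distal G1E peaks and 84.2% and 82.9% of the highest distal MEP peaks.

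**Figure D3:**
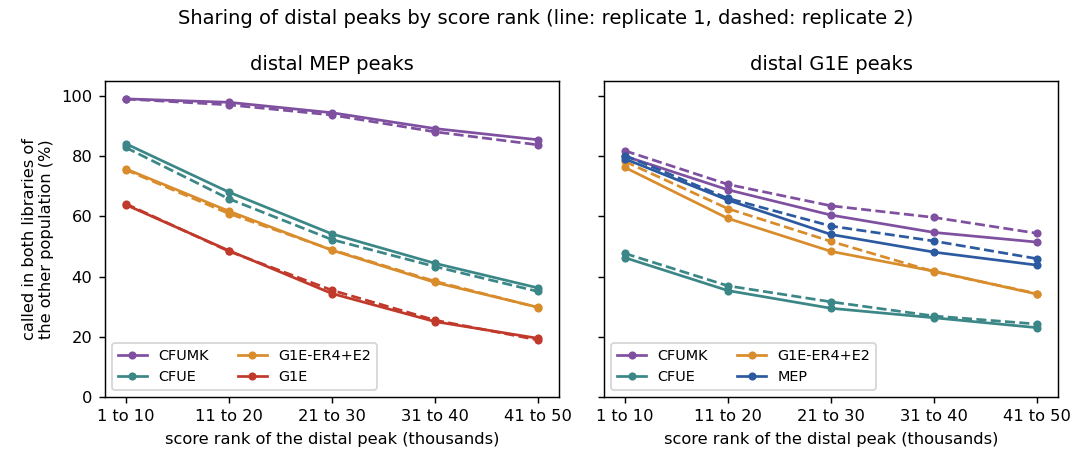
Percent of distal peaks called in both libraries of another population (y axis) by the score rank of the peak in its own list, in classes of 10000 (x axis), for MEP peaks (left) and G1E peaks (right), with solid lines for replicate 1 and dashed lines for replicate 2. The line from MEP to G1E falls from 63.9% to 19.4% in replicate 1 and lies below the lines to CFUMK, CFUE and G1E-ER4+E2 in every class. The full lists of the other populations, which differ in length, were searched.

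Similarity over all elements, given as phi, the correlation of presence and absence, was 0.741 between the G1E libraries at equal peak number. It was 0.526 between G1E and G1E-ER4+E2, 0.386 (0.376 to 0.397 over the 4 pairs of libraries) between G1E and MEP, 0.321 (0.309 to 0.334) between G1E and CFUMK and 0.310 between G1E and CFUE. MEP was thus the primary population closest to G1E on this measure, and the pair ranges of MEP and CFUMK did not overlap. MEP was closer to G1E-ER4+E2, at 0.464, than to G1E. With all peaks MEP was again the primary population closest to G1E, at 0.357 (0.330 to 0.386). The range of the erythroblasts (ERY) then overlapped it, at 0.334 (0.314 to 0.354), as did that of CFUE, at 0.309 (0.271 to 0.348). That of the neutrophils (NEU), at 0.302 (0.262 to 0.341), overlapped it as well, so the overlap was not limited to erythroid populations.

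The exclusive elements of the 2 populations differed in where else they were open. Of the 4315 distal G1E-only elements, 3.87% were called in CFUE and 4.10% in ERY, the erythroblasts, but 27.3% in CMP, the common myeloid progenitors, 26.7% in the granulocyte monocyte progenitors (GMP), 25.8% in CFUMK and 24.7% in immature megakaryocytes (iMK). Of the 40675 distal MEP-only elements, 23.2% were called in CFUE and 76.6% in CFUMK. These shares moved with the lengths of the lists. With equal numbers the G1E-only shares were 5.47% in CFUE, 5.91% in ERY, 17.0% in CMP, 17.1% in GMP, 14.2% in CFUMK and 16.6% in iMK, and the MEP-only shares were 33.3% in CFUE and 53.5% in CFUMK. Of all G1E-only elements, 2197 (40.9%) had no peak in any of the 20 primary libraries, and 1291 had none in any other library. With equal numbers 55.2% had no peak in a primary library. For MEP-only elements the share with no peak in another primary library was 5.42%, and 15.1% with equal numbers. Shared elements were broad, with 49.6% called in all 9 other primary populations.

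Motif letters were searched in 200 bp about the centre of each element. Among distal elements the GATA motif was found in 48.1% of G1E-only, 37.1% of MEP-only and 49.1% of shared elements, against 24.5% of all distal elements of the 12 populations and between 19.6% and 20.9% of windows 10 kb away. At equal peak number the shares were 50.1%, 45.7% and 49.5%. GATA letters were thus no rarer in G1E-only than in MEP-only elements. Leaving out MEP replicate 2 moved the difference between MEP-only and G1E-only elements from −11.0 to −18.3 percentage points, and leaving out G1E replicate 1 moved it to −4.57. GATA joined to CTG was found in 6.84%, 4.30% and 9.25%, with 2.37% over all distal elements. These shares are a description of elements of the same few libraries and carry no test.

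Other motifs separated the classes further. The AP-1 motif was in 14.6% of distal G1E-only elements, 4.92% of MEP-only and 8.04% of shared elements, with 7.01% overall. The NF-E2 motif, which is the AP-1 motif with TGC before it, was in 3.34%, 0.735% and 1.84%, with 1.00% overall. A motif of PU.1, an ETS factor of myeloid cells (GAGGAAGT or GAGGAACT), was in 11.3%, 3.02% and 5.14%, with 9.54% overall. The STAT motif (TTCCNGGAA) was in 1.65%, 0.467% and 0.726%, with 0.660% overall. In contrast, the CTCF motif was in 0.209% of distal G1E-only elements, which is 9 of 4315 and near the 0.232% of windows 10 kb away, and in 7.72% of MEP-only and 5.49% of shared elements. The order of AP-1, PU.1 and CTCF shares between the exclusive classes was the same at equal peak number, at 13.4% and 4.43%, 10.6% and 2.48%, and 0.967% and 8.31%. The AP-1, PU.1 and CTCF shares of promoter elements were 8.74%, 9.69% and 0.190% in G1E only and 2.92%, 2.52% and 2.40% in MEP only.

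**Figure D4:**
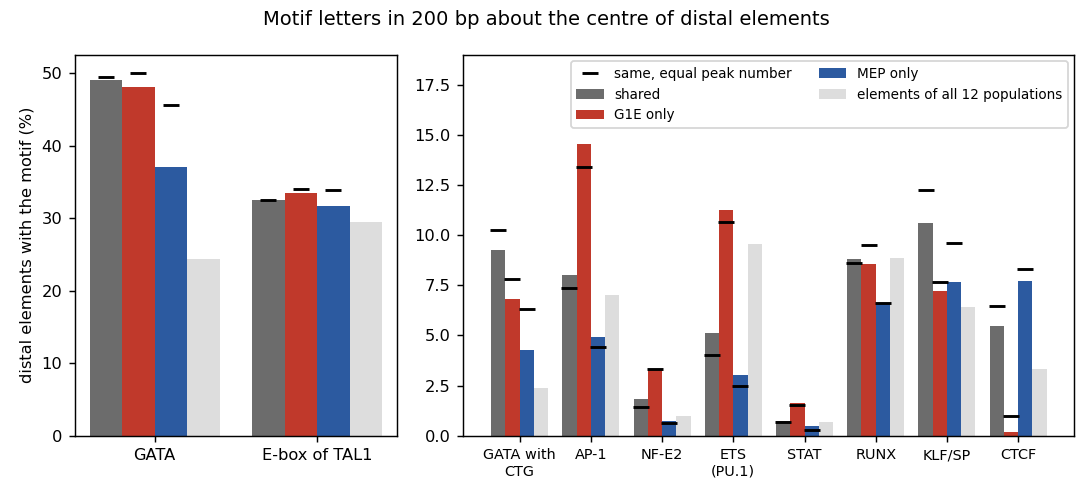
Percent of distal elements that hold each motif within 200 bp about their centre (y axis) for G1E-only, MEP-only and shared elements and for all distal elements of the 12 populations, with black ticks for the same class at equal peak number. AP-1 and PU.1 letters are most frequent in G1E-only elements and CTCF letters least, 0.209% against 7.72% in MEP-only elements.

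Distal MEP elements with a CTCF motif, 4279 in all, were called in both G1E libraries in 12.4%, against 18.1% of the 50252 without the motif. The order depended on rank, which in this paragraph is the best rank of the element in MEP replicate 1 alone. Among the 10000 highest MEP peaks 73.6% of the 53 elements with the motif were called in G1E and 63.7% of those without it, whereas beyond rank 25000 the shares were 7.89% and 12.1%. In G1E-ER4+E2 30.1% of CTCF motif elements and 24.3% of the others were called. MEP elements with GATA joined to CTG, 2798 in all, were called in both G1E libraries in 31.9%, against 16.9% of the others, and in G1E-ER4+E2 in 30.0% against 24.5%. Among the 10000 highest MEP peaks the G1E shares were 68.1% against 63.4%, and beyond rank 25000 they were 22.0% against 11.3%. In G1E-ER4+E2 the order turned with rank, from 77.7% against 75.8% among the 10000 highest to 53.1% against 59.1% between ranks 10000 and 25000 and 17.0% against 17.6% beyond. For the plain GATA motif the order in G1E also turned with rank. Of the 21142 elements with it 22.4% were called in both G1E libraries, against 14.7% of the others. Among the 10000 highest MEP peaks the shares were 60.5% against 69.0%. Between ranks 10000 and 25000 they were 43.3% against 44.4%, and beyond 15.6% against 9.54%. With equal numbers 26.1% of CTCF motif elements and 35.8% of the others were called in both G1E libraries, and 48.2% of those with GATA joined to CTG and 33.9% of the others.

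The restored line divided the MEP elements further. Of distal MEP elements 7153 were called in both lines, 4190 in G1E-ER4+E2 and not G1E, 1445 in G1E and not G1E-ER4+E2, and 32437 in neither line. The GATA motif was in 44.2%, 39.6%, 66.2% and 37.5% of these, and CFUE shared 63.5%, 49.8%, 19.6% and 17.9%. The elements that MEP held in common with G1E alone therefore had the highest GATA share. With equal numbers the 4 classes held 5199, 1819, 770 and 7110 elements, their GATA shares were 44.6%, 45.9%, 73.1% and 47.1%, and CFUE shared 63.3%, 50.2%, 29.9% and 27.5%. Among distal G1E-only elements, 2402 (55.7%) were in neither G1E-ER4+E2 library and had the GATA motif in 55.3% and AP-1 in 12.4%, and the 1217 (28.2%) called in both had them in 36.8% and 18.3%. With equal numbers the GATA shares were 57.6% and 38.2%.

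By gene, 13569 of 21911 protein coding genes averaged 2 or more peaks within 20 kb of the gene or inside it and were tested. Of these 1683 genes (12.4%) had more peaks in G1E at equal peak number and 2901 (21.4%) fewer (limma, adjusted p of 0.05). The median log2 difference over all genes tested was −0.076. These calls describe how each library's top peaks were spread over genes. The average used to choose genes was taken over all 24 libraries, G1E included. A gene with peaks in few populations could thus be tested through the group where it was high. Of the 1683 genes with more, both full G1E lists exceeded both full MEP lists in 416 and lay below them in 678. Of the 2901 with fewer, 2892 were lower in both full G1E lists too, and 765 had no peak at all in G1E. Scaled per 100000 peaks of the full lists, 5731 genes had more and 5361 fewer, with a median of 0.121.

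The genes with the largest gain of peaks in G1E were Pawr and Nova1. Pawr, a pro-apoptotic regulator, had 28 and 24 peaks in G1E and 0 and 0 in MEP (log2 difference 4.75 ± 0.30, limma adjusted p = 1.48e-12), and 8 and 8 in the full MEP lists. Nova1, a splicing factor of neurons, had 28 and 23 against 0 and 0, and 1 and 3 in full. Both were also peak-rich in G1E-ER4+E2, with 19 and 17 peaks at Pawr and 11 and 13 at Nova1. Next came Hoxc4 with 15 and 15 against 0 and 0, in a window shared with Hoxc5, Hoxc6, Hoxc8 and Hoxc9, and 15 and 15 in G1E-ER4+E2. Of 18 elements there 6 were G1E only and 1 was shared.

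Il5ra and Csf2rb, both cytokine receptor genes, were among the 12 largest gains. Il5ra, the interleukin-5 receptor of eosinophils, had 13 and 16 peaks in G1E, 0 and 0 in MEP at equal number (6 and 7 in the full MEP lists), and 0 and 0 in G1E-ER4+E2 (log2 difference 3.95 ± 0.45, limma adjusted p = 1.12e-07). Its promoter element printed above stood at percentiles 71.3 and 71.4. Csf2rb, the common beta chain of the interleukin-3, interleukin-5 and GM-CSF receptors, had 12 and 12 against 0 and 0, but 10 and 9 in the full MEP lists. Its promoter was G1E only with all peaks as well, at percentiles 69.3 and 73.7. Unlike Il5ra it was retained in G1E-ER4+E2, with 19 and 15 peaks. The window of Csf2rb overlaps that of its close relative Csf2rb2. Nuggc had 28 and 25 against 1 and 1, and Cers6, a ceramide synthase, 40 and 45 against 3 and 3, although the full MEP lists held 36 and 35 at Cers6. Slitrk5, Tjp1, Slc26a9, Magi1 and Dlc1 completed the 12 largest gains, with log2 differences from 3.17 to 3.36. At Tjp1 and Magi1 the full MEP lists held more peaks than G1E, 28 and 25 against 7 and 14, and 25 and 19 against 8 and 8.

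The 12 largest losses had no peak in either full G1E list. They were Ptpn14, Sox5, Mgat5, Zfhx3, Hhat, Notch2, Dscam, Mindy4, Lrrc1, Zmiz1, 2900026A02Rik and Plcb4, with log2 differences from −4.82 to −4.28 that depend on the prior of 1 peak. Ptpn14, a phosphatase, had 24 and 31 peaks in MEP (−4.82 ± 0.25, limma adjusted p = 2.86e-14), and Sox5, a transcription factor, 25 and 22, with 107 and 103 in the full MEP lists. Notch2, a receptor of cell fate signals, had 17 and 24 (−4.41 ± 0.21, adjusted p = 8.29e-15). Of the 12, G1E-ER4+E2 had no peak at 9 at equal number, and at most 3 at Sox5, Hhat and Dscam. The window of Mindy4 overlaps that of Aqp1, the water channel of red cells, which had 0 and 0 peaks in G1E and 15 and 13 in MEP. The 24 genes were chosen among those whose G1E and MEP values do not overlap. Their separation in the plot of peaks per library follows from that choice.

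**Figure D5:**
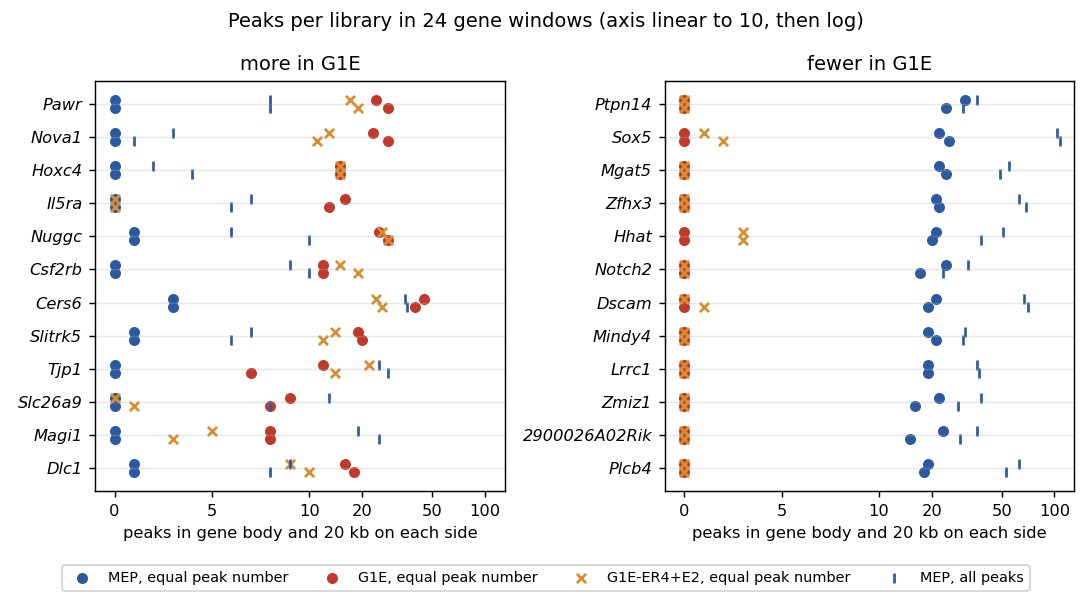
Peaks inside each gene or within 20 kb of it (x axis, linear to 10 and logarithmic above) for the 12 genes with the largest gain and the 12 with the largest loss in G1E, with a point for each library of G1E, MEP and G1E-ER4+E2 at equal peak number and a tick for each full MEP list. At the losses the G1E points lie at 0 and the MEP points between 15 and 31.

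Among the 36 GATA1-activated erythroid genes tested, 10 had more peaks in G1E and 3 fewer, with a median log2 difference of 0.15. Over all genes tested 12.4% had more and 21.4% fewer, and every list is to be read against these shares. In every list the counts with more or fewer peaks are out of its tested genes, which can be fewer than the genes listed. The median was 0.24 in the 23 housekeeping genes. Add2, a red cell membrane skeleton protein, had 17 and 17 peaks against 6 and 6 (1.36 ± 0.34, limma adjusted p = 0.00267), and Bnip3l, which clears mitochondria from red cells, 10 and 13 against 3 and 4 (1.47 ± 0.30, adjusted p = 0.000317). The 3 with fewer were Aqp1, Trim58 and Rhd, genes of late red cells. Trim58 had 0 and 0 against 7 and 4 (−2.66 ± 0.28, adjusted p = 3.16e-08) and Rhd 5 and 4 against 9 and 8. The promoters of all 3 were MEP only, a pattern of 14.6% of gene promoters, and G1E-ER4+E2 had 2 and 3 peaks at Trim58, 8 and 8 at Rhd and none at Aqp1. Of 10 globin genes, 1 passed with more peaks in G1E, Hbb-bs, with 11 and 11 against 8 and 6 (0.60 ± 0.23, adjusted p = 0.0493), and 0 with fewer. With 5 kb on each side in place of 20 the Hbb-bs difference turned to −0.58, and the promoter of its neighbour Hbb-bt was MEP only. Of 24 heme synthesis and iron genes 3 had more, near the 12.4% of all genes tested, and 0 fewer.

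The shares over all genes tested were 12.4% with more peaks in G1E and 21.4% with fewer. Of 19 GATA1-repressed genes tested, 9 had more peaks in G1E and 1, Kit, fewer, with a median of 0.50. Besides Gata2 they included Spi1, which encodes PU.1, with 14 and 10 peaks against 6 and 5 (0.99 ± 0.22, limma adjusted p = 0.000914), and Cd34, with 11 and 16 against 6 and 7. With all peaks the promoter of Cd34 was nevertheless MEP only, as were those of Erg, Fli1 and Kitl, a pattern of 14.6% of gene promoters. At equal peak number only that of Cd34 was MEP only in this list, and those of Gata2 and Hhex were G1E only. These patterns took 6.66% and 1.2% of gene promoters then. In the list of 20 mast cell, basophil and eosinophil genes 12 were tested, of which 7 had more peaks in G1E and 2 fewer. The median of 1.50 over these 12 genes was the highest of the 17 lists. The other genes of the list averaged too few peaks to be tested. Cpa3, a mast cell protease, had 12 and 17 peaks in G1E, 1 and 1 in MEP and 1 and 1 in G1E-ER4+E2, although the full MEP lists held 9 and 18 (2.94 ± 0.30, adjusted p = 1.51e-08). Its intronic element printed above was G1E only at percentiles 70.7 and 79.0, and the shared element 1.87 kb before its start stood at 97.7 and 97.5 in G1E and at 49.0 and 51.0 in MEP. Cd200r3, a basophil and mast cell receptor, had 10 and 11 against 1 and 2, and Alox5, a leukotriene enzyme, 14 and 15 against 3 and 3. Mitf, a mast cell factor, went the other way with 0 and 0 against 3 and 4, and 24 and 20 in the full MEP lists.

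In the megakaryocyte list 4 of 22 genes had more peaks in G1E and 5 fewer, against 12.4% and 21.4% of all genes tested. Pf4, platelet factor 4, had 11 and 13 against 4 and 5 (1.24 ± 0.37, limma adjusted p = 0.0104), and the element 3.39 kb past its start ranked at percentiles 98.7 and 99.1 in G1E and 95.4 and 96.4 in MEP. Itgb3, an integrin of platelets, had 15 and 14 against 3 and 4. Its partner Itga2b had 3 and 2 against 9 and 6, and of 12 elements there 5 were MEP only. Vwf, the von Willebrand factor gene, had 0 and 0 against 13 and 14 and no peak in G1E-ER4+E2. In the stem and multilineage list 8 of 28 had more and 10 fewer, against 12.4% and 21.4% of all genes tested, and 17 of 35 promoters were MEP only, a pattern of 14.6% of gene promoters. At equal peak number 8 of the 35 promoters were MEP only, against 6.66% of gene promoters. Sox4 had 0 and 0 peaks against 6 and 7 and Hoxa9 1 and 0 against 4 and 4, while Meis1, a cofactor of Hoxa9, had 13 and 13 against 5 and 8. In the HOX cluster list 11 of 34 genes were tested, of which 5 had more, all in the Hoxc cluster, and 6 fewer. Hoxc windows could be tested through their peaks in the lines alone, so these counts are no fair share of the list.

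In the interferon response and MHC class I list 14 of 25 genes had fewer peaks in G1E and 1 had more, with a median of −0.52. Of all genes tested 21.4% had fewer and 12.4% more. Ifit2 had 0 and 0 peaks against 4 and 5 (−2.45 ± 0.25, limma adjusted p = 1.26e-08), Nlrc5, the activator of MHC class I genes, 4 and 5 against 10 and 14, and Psmb9, an immunoproteasome subunit, 4 and 3 against 10 and 9. The exception was Ifih1, an RNA sensor, with 12 and 15 against 9 and 8. Of 30 promoters in this list 10 were MEP only with all peaks, among them those of H2-K1, Tap2 and Psmb8, against 14.6% of gene promoters. At equal peak number 6 were, against 6.66%, among them those of H2-K1 and Psmb8 but not Tap2. Both full G1E lists had no peak at Ifit2, whereas G1E-ER4+E2 had 4 and 3 at equal number.

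The lists that follow are to be read against the 12.4% of all genes tested with more peaks and the 21.4% with fewer. Of the cytokine receptor and signalling genes 7 of 29 had more peaks and 6 fewer. Il4ra, the interleukin-4 receptor, had 12 and 11 against 6 and 4, and Tgfbr2, a receptor of TGF-beta, 0 and 0 against 9 and 9 (−3.32 ± 0.21, limma adjusted p = 1.62e-12). The promoters of Csf2rb, Csf2rb2 and Ifngr2 were G1E only, a pattern of 0.411% of gene promoters. Of 28 cell cycle and MYC-linked genes 7 had more and 2 fewer, and the survival gene Bcl2 was among the former with 15 and 21 against 3 and 4, although the full MEP lists held 31 and 37. Of 25 immediate early and AP-1 genes 5 had more and 6 fewer. Of 32 granulocyte and monocyte genes 3 had more and 6 fewer, with Cebpa, the granulocyte factor, at 0 and 0 against 2 and 1. Of 29 lymphoid genes 18 were tested, of which 3 had more and 6 fewer.

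The remaining lists hold genes of unrelated tissues and genes that all cells use. Of 7 pluripotency and germline genes tested 1 had more and 5 fewer, and 1 of 25 promoters was called in each G1E library, that of Dppa4, against 11 in each MEP library. At equal peak number 4 were called in each MEP library. Of 24 genes of other tissues 9 were tested, of which 1 had more and 4 fewer. All 23 housekeeping promoters were called in all 4 libraries, but 5 of these genes had more peaks in G1E and 1 fewer, with a median of 0.24. Gapdh had 19 and 16 against 6 and 7 (1.30 ± 0.22, limma adjusted p = 3.68e-05), with the same numbers in the full lists.

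Marker promoters were compared with the labels. Of 10 erythroid marker promoters 9 were called in each of the 4 libraries, all but that of Alas2. Of 9 granulocyte and monocyte markers 0 were called in G1E and 3 and 2 in MEP, and of 4 endothelial markers 0 in G1E and 2 and 3 in MEP. Of 5 mast cell markers 2 and 1 were called in G1E and 2 and 3 in MEP, with Hdc called in 1 G1E and both MEP libraries, and at equal peak number 2 and 1 against 0 and 0. Of 6 stem and multilineage markers 1 was called in each G1E and 5 in each MEP library, and of 7 lymphoid markers 1 and 1 in G1E and 1 and 2 in MEP. Of 8 megakaryocyte markers 3 were called in each G1E and 5 in each MEP library, and of 5 pluripotent cell markers 0 in G1E and 2 and 1 in MEP. These counts are from the full lists except where stated. At equal peak number no endothelial or pluripotent cell marker was called in any of the 4 libraries. Granulocyte and monocyte markers were then 0 in each G1E and 1 in each MEP library, and stem and multilineage markers 1 and 3. Megakaryocyte markers were 3 and 4, and lymphoid markers 1 in each library. The part of other cells in the MEP sort in the differences above was not tested.

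Peaks of the line were also spread unevenly over chromosomes. Chromosome 12 held 5.21% and 5.24% of the G1E peaks at equal number, 4.54% and 4.54% of those of G1E-ER4+E2 and between 3.78% and 4.12% in the 20 primary libraries. Chromosome 1 held 7.90% and 8.29% in G1E, 7.77% and 7.48% in G1E-ER4+E2 and between 5.92% and 7.29% in the primary libraries. Of genes tested on chromosome 12, 29.0% had more peaks in G1E, and on chromosome 1 23.3%, against 12.4% overall. Nova1 lies on chromosome 12. Slc26a9 and Bcl2 lie on chromosome 1, as do Ptpn14, Mgat5 and Hhat among the 12 largest losses. Without chromosome 12, 1550 genes had more and 2841 fewer.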

How the data were processed

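Each of the 24 libraries was deposited by the authors as a list of peaks with 2 unnamed score columns, called library by library and not pooled. Per the methods and the submitters' processing notes, reads were trimmed, aligned to mm10 with Bowtie 0.12.8, cleared of mitochondrial and unplaced contigs, handled with SAMtools 1.6 (another version in the methods) and bedtools, and HOMER called local peaks of cleavage. A shift of reads for the transposase, duplicate removal and a peak threshold are not given in the sources used here. The deposited score has no stated unit and was used only to rank peaks within a list and to read the relative depth from the step of scores under 10 (tolerance 0.0051). Read totals were not used, so peak numbers carry no counting interval.

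Groups followed the labels. Peaks were compared over all peaks and over the 52720 highest scores of each library, and elements were peaks of the compared libraries merged where they overlapped by 1 bp. Promoter elements or peaks were those centred at most 1 kb from any of 132629 transcript starts (GENCODE, GRCm38.p6), and a gene promoter was called by a peak within 500 bp of a start. Sequence came from GRCm38.p6. Motifs were searched on both strands in 200 bp about the centre and in windows 10 kb away.

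Peaks in gene windows (20 kb flanks) were fitted at equal peak number on log2(peaks + 1) with limma 3.58.1 (R 4.3.3) over all 24 libraries, whose 12 groups share one estimate of the spread, and genes averaging 2 or more peaks were tested (two-sided, Benjamini-Hochberg, threshold 0.05). In simulated data for this contrast, with 13672 genes tested, the fit found 34% of genes changed 2-fold, 100% changed 4-fold, 32.6% lowered to 0.5 and 84% lowered to 0.25, with 13 false calls. Apart from the changed genes, all simulated libraries had a common mean per gene and a common spread. The populations thus did not differ otherwise, so the number of false calls may not carry over to the real data. Promoter shares were compared by exact permutation. Other steps used scipy 1.17.1, pandas 2.3.3 and numpy 2.4.6 under Python 3.11.15, and plots matplotlib 3.10.9.

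The members, the 17 gene lists, the markers and the tests were chosen with earlier results of these data known, so no list is independent evidence. Named genes are Gata1, the 12 largest gains and 12 largest losses among genes past the threshold whose G1E and MEP values do not overlap (overlapping windows named once), and list genes past the threshold or with an exclusive promoter. Elements were described at 14 loci under the same rule, and those at Csf2rb, Hoxc4, Il5ra and Cpa3 were added after their values were seen. Ahsp was not matched. Lists share genes such as Kit, Fli1, Cd34 and Bcl2. Alternatives were other scalings, flanks, priors, filters, overlaps, promoter distances and motif windows, and leaving out each replicate. Some items are not reported here.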

Additional observations from a re-analysis of the deposited data

How the results depend on the processing

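Peak numbers differed between the groups by more than within them. The promoter share difference, 14.7 percentage points (G1E minus MEP), turned to −0.89 at equal peak number. It was 14.5 and 14.6 with starts reached within 500 bp and 2 kb, and 13.5 to 15.9 when each replicate was left out. At equal peak number G1E-only elements went from 5368 to 9373 and MEP-only elements from 55295 to 14597, and with a peak in either replicate to 12205 and 126102. Ranking by the second score column, chosen after seeing the data, gave 9316 and 14661 at equal number. Leaving out each replicate, which calls a population from 1 library, gave 24245 to 29077 shared, 6068 to 10125 G1E-only (highest without G1E replicate 1) and 57864 to 98344 MEP-only elements (highest without MEP replicate 2). The difference in GATA motif share of distal elements (MEP only minus G1E only) was −11.0 percentage points, −4.42 at equal peak number, −8.18 in 100 bp, and −18.3 to −4.57 without each replicate.

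The 1683 genes with more peaks in G1E and 2901 with fewer became 5731 and 5361 per 100000 peaks of the full lists, 199 and 11495 unscaled (median log2 difference −1.16), 913 and 1627 with distal peaks only, 1058 and 1409 with a mean of at least 5 peaks, 650 and 1269 with the 4 libraries fitted alone, and 1236 and 1861 with 5 kb flanks. Without each replicate they were 1136 to 1282 and 2037 to 2466, a fit that assumes the remaining library of that group varies as the others do. Of the 1683, 1290 were called again per 100000 peaks and 175 unscaled, where 975 changed sign, and of the 2901, 1676 and 2849 were called again. With the 4 libraries fitted alone, 439 of the 1683 and 1058 of the 2901 were called again and 19 of 55 named genes lost their call, namely Gata1, Gata2, Kit, Rhd, Bnip3l, Hbb-bs, Spi1, Cd34, Pf4, Itga2b, Meis1, Cd200r3, Il4ra, Bcl2, Hoxa9, Nlrc5, Psmb9, Ifih1 and Cebpa (limma adjusted p from 0.055 to 0.159). Calls also ended without G1E replicate 1 (Hbb-bs), without G1E replicate 2 (Rhd, Hbb-bs, Kit, Pf4, Itga2b and Ifih1), without MEP replicate 1 (Rhd, Kit, Pf4, Itga2b, Meis1 and Ifih1) and without MEP replicate 2 (Hbb-bs and Ifih1), with adjusted p from 0.0552 to 0.307. Named genes that changed sign did so mostly unscaled, namely Tjp1 (−1.33), Slc26a9 (−0.24), Magi1 (−1.34), Add2 (−0.21), Hbb-bs (−0.39), Pf4 (−0.16), Itgb3 (−0.22), Meis1 (−1.48), Bcl2 (−0.89) and Ifih1 (−0.35). Rhd turned to 0.45 per 100000 peaks and Hbb-bs to −0.58 with 5 kb flanks. Leaving out chromosome 12 and ranking by the second score, both chosen after seeing the data, changed the sign of none of the named genes. No paired analysis was possible because the labels give the libraries of G1E and MEP no shared replicate numbers.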
